A study of Mus musculus with 4 samples.

Results

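*Runx2*, *Sp7*, *Dlx3*, *Dlx5*, *Dlx6*, *Msx1* and *Msx2* encode transcription factors of the osteoblast lineage. They were taken by symbol, 7 of the 53703 features in the deposited matrices, and were read out in 4 droplet-based scRNA-seq libraries of the metaphysis of femur and tibia from 12-week-old mice. The 2 Lats2iECKO libraries come from mice with loxP-flanked *Lats2* alleles and the *Cdh5(PAC)-CreERT2* transgene, in which tamoxifen removes *Lats2* from endothelial cells (ECs), where the *Cdh5* promoter is active. The 2 control libraries come from Cre-negative littermates, which the labels call untreated and the study's methods say received tamoxifen as well. A *Cdh5(PAC)-mT/nG* reporter was brought into both backgrounds. Cells positive for CD45, CD117 or hematopoietic lineage markers had been depleted before capture, and the study used both sexes, without giving the sex or number of animals behind each library. The libraries of a genotype are described in the study as biological replicates. The members were not targeted in any cell, and the comparison asks how their transcripts in bone-forming and neighbouring cells differ when *Lats2* is targeted in ECs.

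Osteoblasts form bone from mesenchymal progenitors. RUNX2 commits progenitors to the lineage and SP7 (osterix) acts downstream of it to complete osteoblast differentiation, and mice that lack either form no bone. The Dlx proteins are homeodomain factors that respond to bone morphogenetic proteins and activate genes such as *Runx2* and *Bglap*, whereas MSX1 and MSX2 are homeodomain factors of progenitor and craniofacial mesenchyme that often act as repressors. *Dlx5* and *Dlx6* lie side by side in the genome, and RUNX2 is also known to drive the hypertrophy of chondrocytes. CXCL12-rich reticular cells of the marrow and stromal cells of the metaphysis contain progenitors of osteoblasts, and osteocytes are osteoblasts buried in bone.

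On GRCm39 (GENCODE M39), *Runx2* (ENSMUSG00000039153) spans chromosome 17 from 44806874 to 45125684 on the minus strand and *Sp7* (ENSMUSG00000060284) chromosome 15 from 102265038 to 102279370 on the minus strand. *Dlx3* (ENSMUSG00000001510) lies on chromosome 11 from 95010937 to 95016122 on the plus strand. *Dlx5* (ENSMUSG00000029755, chromosome 6 from 6877804 to 6882092, minus strand) and *Dlx6* (ENSMUSG00000029754, chromosome 6 from 6862989 to 6868568, plus strand) are neighbours. *Msx1* (ENSMUSG00000048450) lies on chromosome 5 from 37977829 to 37981928 and *Msx2* (ENSMUSG00000021469) on chromosome 13 from 53620914 to 53627110, both on the minus strand. UMIs were counted over exons and introns, and for strand the methods point to the counting tool's defaults unless a settings file, not used here, says otherwise. If strand was not used, reads of *Runx2* and of *Supt3* and the *Runx2os* transcripts on its other strand, and reads of *Dlx6* and of *Dlx6os1* and *Dlx6os2*, may not be fully told apart. The RefSeq promoter table on GRCm38.p6 held 3 of the 7 genes. The 250 bases before the start of *Runx2* and of *Msx1* are printed because these genes were called in opposite directions in the sums of the same classes. Capitals mark RUNX-type letters (TGTGGT, on the other strand ACCACA) or homeodomain-type letters (TAATTA or TAATTG), of which the *Msx1* window has none.
Runx2, chr17:44814628-44814877, minus strand: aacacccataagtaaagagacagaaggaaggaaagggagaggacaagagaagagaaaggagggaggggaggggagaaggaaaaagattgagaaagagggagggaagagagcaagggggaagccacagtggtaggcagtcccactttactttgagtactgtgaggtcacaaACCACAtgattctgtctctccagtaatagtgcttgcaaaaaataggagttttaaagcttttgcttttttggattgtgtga
Msx1, chr5:37824586-37824835, minus strand: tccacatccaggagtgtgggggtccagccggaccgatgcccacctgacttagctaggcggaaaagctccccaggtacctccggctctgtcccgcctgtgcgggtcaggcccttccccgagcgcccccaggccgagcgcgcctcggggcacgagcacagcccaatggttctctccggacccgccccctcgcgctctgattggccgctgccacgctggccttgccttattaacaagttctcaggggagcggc

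The *Runx2* window, with a GC content of 44.8%, has 1 RUNX-type match that begins 80 bases before the start, and 14.0% of all 32851 promoters have at least 1 on either strand. The *Msx1* window has a GC content of 68.0%. Of the homeodomain-type letters, TAATTA occurs in 4.84% of the promoters, among them that of *Msx2*, and TAATTG in 7.17%. These matches describe the letters alone. *Sp7*, *Dlx3*, *Dlx5* and *Dlx6* had no entry.

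The libraries held between 69636600 and 85899079 UMIs. Barcodes with at least 1000 UMIs and 800 genes numbered between 5749 and 7649 per library, and 23262 cells were kept over the 4 libraries after filters on mitochondrial and hemoglobin UMIs, complexity and doublet calls. Between 7 and 22 barcodes were shared by any pair of libraries. Cells were assigned to classes by fixed markers, which include no member: reticular (*Lepr*, *Adipoq*, *Cxcl12* and others), metaphyseal stromal (*Postn*, *Wif1*, *Hs3st5*, *Nlgn1*, *Kcnk2*), osteoblast (*Bglap*, *Car3*, *Ifitm5* and others), osteocyte-like (*Mepe*, *Dmp1*, *Phex*, *Sost*, *Fgf23*), hypertrophic (*Col10a1*, *Ihh*, *Ptgs2* and others) and 5 comparison classes. The class names are those of the marker lists. UMIs of each library and class were summed, and levels are counts per 1000000 UMIs of the sum (CPM). Since 2 libraries against 2 allow no 2-sided exact permutation p below 0.333, the quasi-likelihood test of edgeR was used, with p-values adjusted by Benjamini and Hochberg over all genes tested in a class, and calls were made at 0.05.

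In ECs, *Lats2* stood at 91.2 and 98.0 CPM in the mutants and at 133 and 125 CPM in the controls, and the transgene *Cre-ERT2* at 55.8 and 50.5 CPM against 0.692 and 0.918 CPM. The cells per library were 539 and 676 mutant against 1673 and 1598 control reticular cells, 151 and 186 against 375 and 378 metaphyseal stromal cells, 137 and 141 against 668 and 684 osteoblasts, 13 and 19 against 12 and 13 osteocyte-like cells, and 543 and 548 against 28 and 21 hypertrophic cells. Several classes were not alike between genotypes in their own markers. Metaphyseal stromal cells of mutants had *Wif1* at 975 and 947 CPM against 1905 and 1902 CPM, *Hs3st5* at 156 and 137 CPM against 584 and 563 CPM, and *Postn* at 965 and 883 CPM against 523 and 431 CPM. In the osteocyte-like class *Mepe* ranged from 87.2 to 10154 CPM over the 4 libraries, and *Bglap* stood at 187 and 126 CPM against 2354 and 3440 CPM. Hypertrophic cells of mutants had a median of 7704 and 7661 UMIs and of 0.373% and 0.449% mitochondrial UMIs, against 15955 and 13556 UMIs and 4.18% and 3.52% in controls. Their *Ptgs2* stood at 865 and 792 CPM against 157 and 488 CPM, and *Prkg2*, a marker of the other chondrocytes, at 291 and 273 CPM against 952 and 1349 CPM. In the mutant libraries 21.4% and 22.0% of kept cells fell in no class, against 15% in both controls. The part of these differences in the results below was not tested. The hemoglobin transcript *Hbb-bs* was higher in both mutant libraries than in both controls in each of the 5 classes, at 325 to 571 CPM against 51.5 to 270 CPM. The level of free RNA was estimated at 0.736% to 3.82% of the UMIs of these sums, from hemoglobin transcripts relative to empty droplets. It was 1.833% and 1.855% in mutant against 3.555% and 3.824% in control reticular cells. In metaphyseal stromal cells it was 1.094% and 1.493% against 1.83% and 1.55%. The genotypes overlapped in osteoblasts, osteocyte-like and hypertrophic cells.

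In control libraries, *Runx2* was highest in metaphyseal stromal cells, with 3304 and 3255 CPM, and next in hypertrophic cells, with 2926 and 2020 CPM. It stood at 2016 and 1969 CPM in reticular cells, at 1526 and 1404 CPM in osteocyte-like cells and at 854 and 854 CPM in osteoblasts. The commitment factor was thus more abundant per UMI in the stromal classes than in osteoblasts, where *Bglap* and *Bglap2* alone took 104819 and 46266 CPM of control replicate 1. In a fit of all 5 classes with the library as a block, metaphyseal stromal cells exceeded reticular cells by 0.74 (edgeR log2 difference, adjusted p = 7.97e-06) and osteoblasts by 1.07 (adjusted p = 5.94e-09), and did not differ from hypertrophic cells beyond the spread (0.11, adjusted p = 0.641). Osteoblasts and osteocyte-like cells were neighbours whose order depended on the scaling, with a difference of 0.21 (adjusted p = 0.634) after TMM normalization and −0.78 (adjusted p = 0.00463) with library totals. Of all 14761 genes in this fit, 40.8% differed between reticular and metaphyseal stromal cells, 50.4% between metaphyseal stromal cells and osteoblasts, 68.7% between reticular cells and osteoblasts, 29.6% between reticular and hypertrophic cells, 22.4% between metaphyseal stromal and hypertrophic cells, 10.8% between reticular and osteocyte-like cells and 7.63% between osteoblasts and osteocyte-like cells.

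*Sp7* had another order. It stood at 192 and 192 CPM in control osteoblasts, at 186 and 197 CPM in metaphyseal stromal cells and at 118 and 156 CPM in hypertrophic cells. Reticular cells were lowest, with 30.9 and 34.4 CPM, below each of the 4 other classes (log2 differences of −1.86 to −3.46, adjusted p of at most 0.00518). TMM placed metaphyseal stromal cells below osteoblasts by 0.88 on the log2 scale (adjusted p = 1.86e-08), but with library totals the difference was −0.00098 (adjusted p = 0.998), so this order rests on the normalization. The scaling moved *Runx2* in reticular cells over osteoblasts likewise, from 1.23 with library totals to 0.32 with TMM.

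The Dlx genes were divided between the classes. *Dlx3* was higher in osteoblasts than in the stromal classes, with 58.0 and 53.8 CPM in control osteoblasts, 58.2 and 67.5 CPM in osteocyte-like cells (4 and 5 counts, beside a 3-count floor of 43.6 and 40.5 CPM), 19.9 and 23.9 CPM in fibroblasts, 10.8 and 9.27 CPM in metaphyseal stromal cells and below 1 CPM in reticular cells. The metaphyseal stromal level was lower than that of osteoblasts by 3.35 on the log2 scale (adjusted p = 5.29e-20). *Dlx5* and *Dlx6* instead had their highest levels in metaphyseal stromal cells, with 241 and 243 CPM for *Dlx5* and 55.3 and 54.1 CPM for *Dlx6*. Both exceeded their levels in reticular cells, osteoblasts and hypertrophic cells (log2 differences of 1.06 to 3.01, adjusted p of at most 7.36e-05). *Msx1* did not differ beyond the spread between control reticular cells (18.4 and 22.7 CPM) and metaphyseal stromal cells (23.3 and 17.7 CPM; difference −0.02, adjusted p = 0.945, 95% interval −0.39 to 0.35), and it was low in osteoblasts, at 3.14 and 4.69 CPM. *Msx2* did not exceed 4.62 CPM in any library and class of the 5 and had no count in the osteocyte-like sums, which allows up to 49.6 CPM in the smallest of them.

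**Figure D1:**
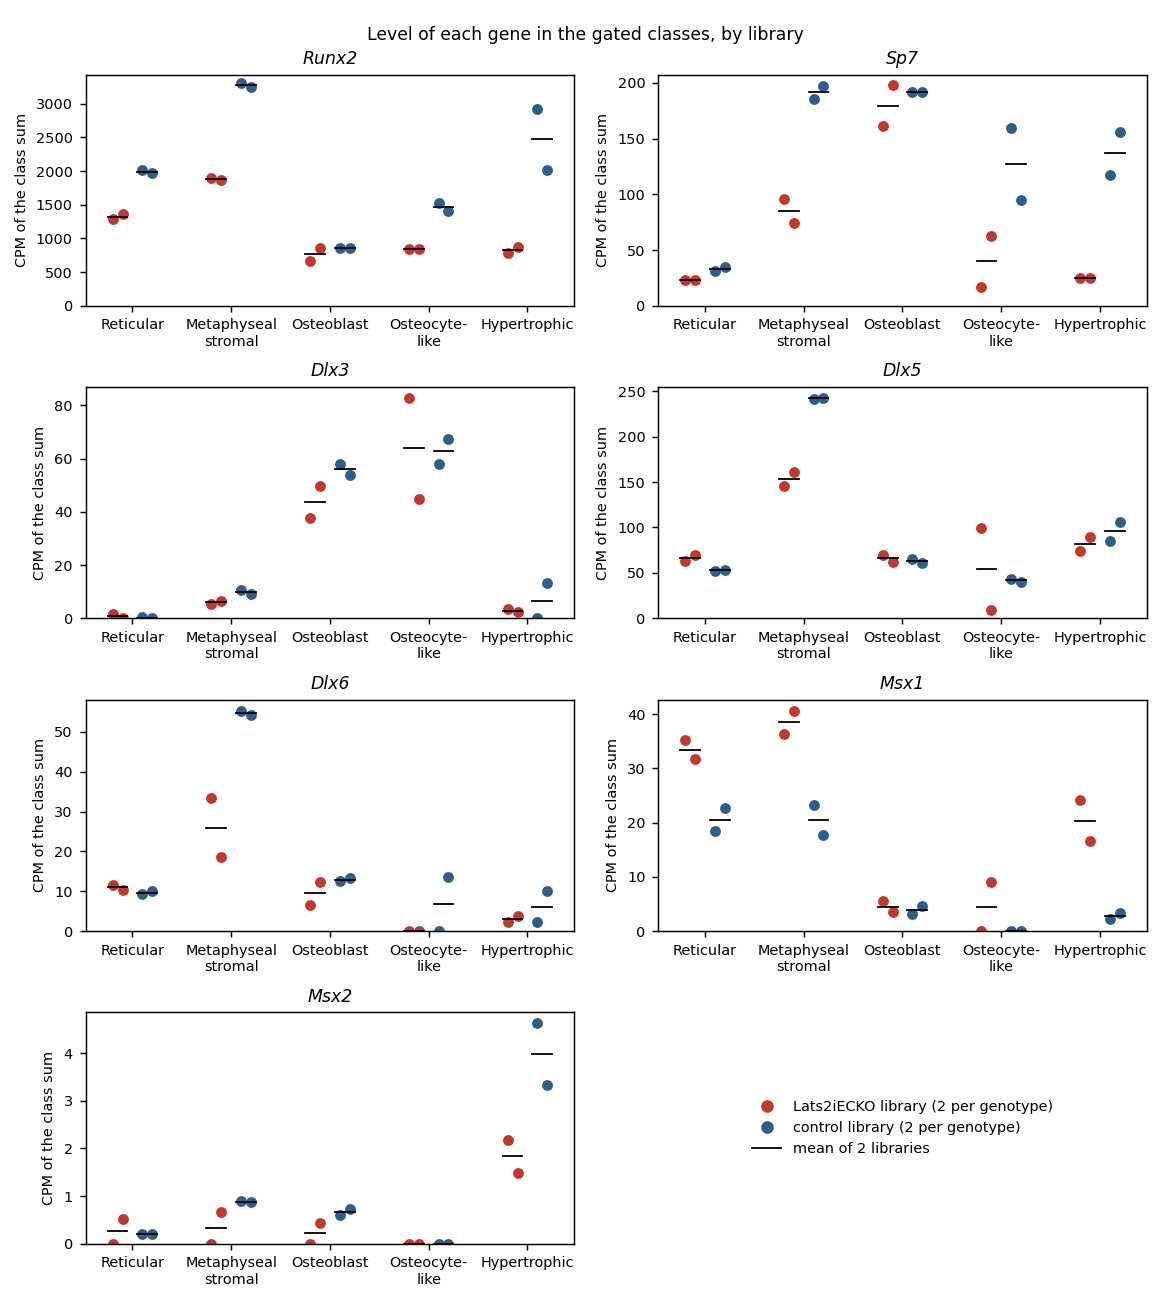
Level of each gene (CPM of the summed UMIs of a class) in the 5 gated classes, each point a library and each black line the mean of 2 libraries, Lats2iECKO in red and control in blue, with a separate linear axis per gene from 0. *Runx2* and *Sp7* were called lower in mutants in reticular, metaphyseal stromal and hypertrophic cells, and the genotypes overlap in osteoblasts. *Msx1* was called higher in reticular and metaphyseal stromal cells, and its hypertrophic control points rest on 1 count each. The osteocyte-like sums hold 12 to 19 cells each. In them *Runx2* was not called and *Sp7* was not tested.

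The calls on the members are given first beside those on all genes. In metaphyseal stromal cells 6 of the 7 members passed the count filter, of which 4 were called lower and 1 higher, where 7.06% of 12065 tested genes were called lower and 10.5% higher. In reticular cells 5 members passed, of which 2 were lower and 2 higher, against 10.4% and 11.7% of 15041 genes. In hypertrophic cells 4 passed, of which 2 were lower and 1 higher, against 11.1% and 11.8% of 11163 genes, the higher one being *Msx1*, which passed through the mutant counts alone. Of the 6 that passed in osteoblasts, edgeR called 0, where 5.78% of 12657 genes were called. At an unadjusted p under 0.05 there were 2, *Runx2* and *Dlx3*, beside 2396 of the 12657 genes. DESeq2 called 0 members. The only member that passed in osteocyte-like cells was *Runx2*, where 4.15% of 1109 genes were called.

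*Runx2* was lower in Lats2iECKO cells of 3 classes. In reticular cells it stood at 1282 and 1368 CPM in the mutants against 2016 and 1969 CPM in the controls, that is 1325 ± 61.1 CPM against 1992 ± 32.9 CPM (SD, n = 2). The fall was 0.55 on the log2 scale (log2 fold change −0.55, SE 0.0495, adjusted p = 7.60e-07). In metaphyseal stromal cells, where controls had the highest level, *Runx2* stood at 1905 and 1861 CPM against 3304 and 3255 CPM (log2 fold change −0.74, SE 0.0622, adjusted p = 2.08e-06). These mutant values lie just below the control values of reticular cells. The largest difference was in hypertrophic cells, at 785 and 865 CPM against 2926 and 2020 CPM (log2 fold change −1.53, SE 0.15, adjusted p = 1.33e-05), a class of 28 and 21 cells in the controls. Of the gated hypertrophic cells, 413 of 543 and 505 of 548 in the mutants lay in Leiden clusters of that name and 0 of 28 and 0 of 21 in the controls did, so the genotypes were compared over cells from differently named clusters. Among hypertrophic cells without a UMI of the marker *Ptgs2* (141 and 143 against 17 and 9 cells), *Runx2* stood at 1089 and 1229 CPM against 3488 and 2299 CPM. In Leiden clusters named by the same markers, in place of the gate, the metaphyseal stromal difference was −0.68 and was not called (adjusted p = 0.0800). Clusters of that name held 121 of 151 and 75 of 186 gated cells of the mutants. For the controls these were 322 of 375 and 290 of 378. In mutant replicate 2 a cluster of 402 cells with close reticular (0.157) and metaphyseal stromal (0.131) scores had no name. In control replicate 2 a cluster of 171 cells (metaphyseal stromal 0.37, reticular 0.36) had no name either.

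In osteoblasts *Runx2* stood at 670 and 857 CPM in the mutants and at 854 and 854 CPM in the controls. The genotypes overlapped, and the difference did not pass the test (log2 fold change −0.20, 95% interval −0.39 to −0.0040, adjusted p = 0.253). Mutant replicate 1 was low and mutant replicate 2 was level with the controls. Without mutant replicate 2, *Runx2* (−0.42, adjusted p = 3.33e-10), *Sp7* (−0.32, adjusted p = 0.00780), *Dlx3* (−0.63, adjusted p = 0.00263) and *Dlx6* (−1.06, adjusted p = 0.0424) were called lower, a fit in which the remaining mutant library is taken to vary like the controls. In osteocyte-like cells both mutants, at 843 and 845 CPM, lay below both controls, at 1526 and 1404 CPM, as for 25.4% of tested genes, with a difference that did not pass the test (−0.80, adjusted p = 0.335).

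*Sp7* was lower in the same 3 classes. In metaphyseal stromal cells it stood at 95.9 and 74.6 CPM against 186 and 197 CPM, a fall to 0.462 of the control level (log2 fold change −1.11, SE 0.120, adjusted p = 1.87e-05). In hypertrophic cells *Sp7* stood at 25.3 and 24.6 CPM against 118 and 156 CPM (log2 fold change −2.36, SE 0.210, adjusted p = 5.66e-06), the largest fall of any member in these classes. Without cells with a *Ptgs2* UMI the hypertrophic values were 46.7 and 23.3 CPM against 101 and 128 CPM. Reticular cells, where *Sp7* is low, had 23.3 and 22.9 CPM against 30.9 and 34.4 CPM (−0.46, SE 0.122, adjusted p = 0.0128), a call that was lost with DESeq2 (adjusted p = 0.233), with free RNA subtracted (adjusted p = 0.0525) and without control replicate 2 (adjusted p = 0.119). The *Sp7* level of empty droplets was 39.2 and 41.7 CPM in the mutants and 96.0 and 93.8 CPM in the controls. In osteoblasts, the class that *Sp7* is best known for, the values of 161 and 198 CPM in mutants overlapped the 192 and 192 CPM of controls (−0.13, 95% interval −0.33 to 0.07, adjusted p = 0.498). In osteocyte-like cells *Sp7* had 1 and 7 counts against 11 and 7 and was not tested.

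Of the 5 classes, *Dlx5* and *Dlx6* were called lower in metaphyseal stromal cells alone, where *Dlx3* was not called (−0.63, adjusted p = 0.275). *Dlx5*, a homeodomain activator of osteoblast genes, fell there from 241 and 243 CPM in controls to 146 and 161 CPM (log2 fold change −0.59, SE 0.0967, adjusted p = 6.90e-04). Its neighbour *Dlx6* fell from 55.3 and 54.1 CPM to 33.3 and 18.7 CPM (−1.04, SE 0.202, adjusted p = 0.00238). Neither was called in the clusters (*Dlx5* −0.43, adjusted p = 0.249; *Dlx6* −0.70, adjusted p = 0.209), in which 167 genes were called in place of 2113. In reticular cells *Dlx5* was higher in mutants, with 63.4 and 69.5 CPM against 52.3 and 53.4 CPM (0.37, SE 0.0837, adjusted p = 0.00406). This call was lost with DESeq2 (adjusted p = 0.0973), in clusters (0.03, adjusted p = 0.934) and without control replicate 1 (adjusted p = 0.0746) or control replicate 2 (adjusted p = 0.0618). *Dlx5* overlapped between genotypes in osteoblasts (0.03, adjusted p = 0.924) and in hypertrophic cells (−0.14, adjusted p = 0.674). *Dlx3* had 37.9 and 49.6 CPM in mutant osteoblasts and 58.0 and 53.8 CPM in control osteoblasts, both mutants below both controls, as were 21.3% of tested genes, without passing the test (−0.38, 95% interval −0.66 to −0.11, adjusted p = 0.106).

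*Msx1* was higher in mutant reticular and metaphyseal stromal cells. In reticular cells it stood at 35.2 and 31.7 CPM in mutants against 18.4 and 22.7 CPM in controls (log2 fold change 0.74, SE 0.132, adjusted p = 7.07e-04), a call that held in every alternative in which the gene could be tested. In metaphyseal stromal cells *Msx1* had 36.5 and 40.6 CPM against 23.3 and 17.7 CPM (0.98, SE 0.201, adjusted p = 0.00351), which DESeq2 (adjusted p = 0.0548) and the clusters (adjusted p = 0.181) did not call. In hypertrophic cells it had 111 and 78 counts in mutants (24.2 and 16.5 CPM) and 1 count in each control (2.31 and 3.32 CPM). The ratio of the group counts per UMI was 7.46, with an exact 95% interval of 2.04 to 62.1 for counting error only. The gene passed the count filter through the mutant libraries alone, so these values are a description, and the call of edgeR was lost with DESeq2 (adjusted p = 0.0525) and with the stricter gate (adjusted p = 0.0616). In osteoblasts *Msx1* was low and overlapped between genotypes (0.14, adjusted p = 0.898). *Msx2* did not pass the filter on low counts in any of the 5 classes.

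**Figure D2:**
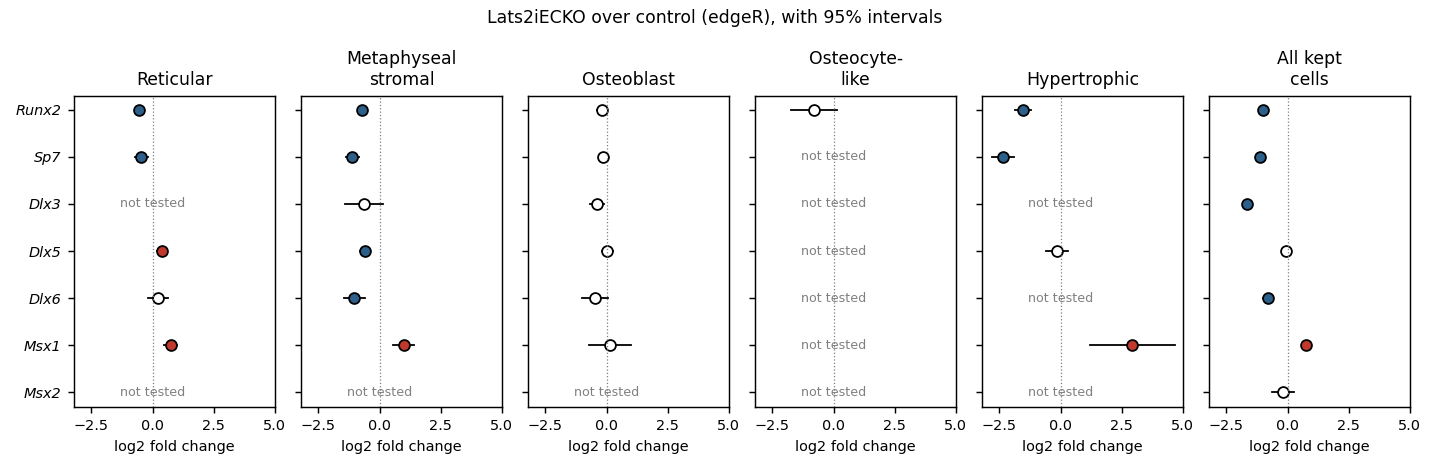
Log2 fold change of each gene, Lats2iECKO over control, with the 95% interval from edgeR, in the 5 classes and in the sum of all kept cells, with filled circles for adjusted p of at most 0.05 (blue lower, red higher) and open circles otherwise. *Runx2* and *Sp7* are lower in reticular, metaphyseal stromal and hypertrophic cells, no member is called in osteoblasts, and *Msx1* is higher in reticular and metaphyseal stromal cells. Its point in hypertrophic cells rests on 1 count in each control.

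The fall of *Runx2* and *Sp7* differed between classes. In 1 fit of all 5 classes, the log2 fold change in osteoblasts was tested against the mean of those in the other 4 classes, and likewise for each class. Each class enters the mean used for the others, so the osteoblast and hypertrophic contrasts are linked and not separate results. Both means also take in the sparse osteocyte-like sums, where *Sp7* had 1 and 7 counts in mutants against 11 and 7 in controls. For *Sp7* the osteoblast effect was higher than the mean of the others by 1.14 (SE 0.218, adjusted p = 0.00148) and for *Runx2* by 0.62 (SE 0.156, adjusted p = 0.0163), where 2.85% of 14761 genes were called. The hypertrophic effect was below the mean of the others by 1.46 for *Sp7* (log2 difference −1.46, SE 0.307, adjusted p = 0.00118) and by 0.83 for *Runx2* (−0.83, SE 0.160, adjusted p = 4.21e-04), where 7.12% of genes were called. The *Runx2* osteoblast difference missed the threshold with each of 3 libraries left out (adjusted p up to 0.587), the *Runx2* hypertrophic difference without control replicate 1 (−0.55, adjusted p = 0.445) and the *Sp7* hypertrophic difference without mutant replicate 2 (−0.996, adjusted p = 0.498). With the sparse osteocyte-like sums left out, a choice made after seeing the data, *Dlx5* also differed between classes, with an effect above the mean of the others in reticular cells (0.58, adjusted p = 0.00275, background 6.07%) and below it in metaphyseal stromal cells (−0.72, adjusted p = 2.22e-04, background 4.66%). With those sums included the same *Dlx5* differences were not called (0.51, adjusted p = 0.476, and −0.69, adjusted p = 0.300).

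The share of cells with at least 1 UMI was compared at 1 depth. Each cell was thinned to 2000 UMIs, which left out 139 of 2953 mutant and 146 of 5450 control cells of the 5 classes as too shallow. Background in ECs, whose median depth was 5110 to 6516 UMIs per library, was 2.02% of mutant and 1.67% of control cells for *Runx2* and 0.281% and 0.603% for *Sp7*. *Runx2* was detected in 82.5% ± 3.13 of mutant and 91.5% ± 0.315 of control reticular cells (SD, n = 2), in 82.6% ± 1.40 and 95.4% ± 1.98 of metaphyseal stromal cells, and in 62.1% ± 0.336 and 93.5% ± 4.21 of hypertrophic cells. In osteoblasts the shares were 64.9% and 75.9% in the mutants and 74.1% and 73.9% in the controls, which overlapped. *Sp7* was detected in 26.2% ± 1.16 of mutant and 30.5% ± 1.86 of control osteoblasts. Both mutant libraries lay below both controls, at 25.37% and 27.01% against 29.22% and 31.85%, a difference that was not tested. The exact 95% intervals of these shares, for counting error only, overlapped, at 18.3% to 33.6% and 19.8% to 35.3% against 25.8% to 32.9% and 28.3% to 35.5%. Without thinning, which leaves depth unequal, the *Sp7* shares of osteoblasts were 64.96% and 82.27% against 83.83% and 86.7%. *Dlx3* was detected in 7.46% and 5.84% of mutant against 12.9% and 9.78% of control osteoblasts. The level of neither gene was called in this class. *Sp7* was detected in 17.0% and 15.3% against 24.0% and 30.3% of metaphyseal stromal cells and in 4.14% and 4.74% against 28.6% and 19.0% of hypertrophic cells. Unthinned, *Sp7* was seen in 41.6% of mutant and 71.4% of control metaphyseal stromal cells and in 15.7% and 71.4% of hypertrophic cells, and *Runx2* in 92.7% and 98.4% and in 85.3% and all hypertrophic cells. Both genes were thus seen in a smaller share of mutant cells of these classes, in which *Runx2* was still seen in most cells of both genotypes.

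**Figure D3:**
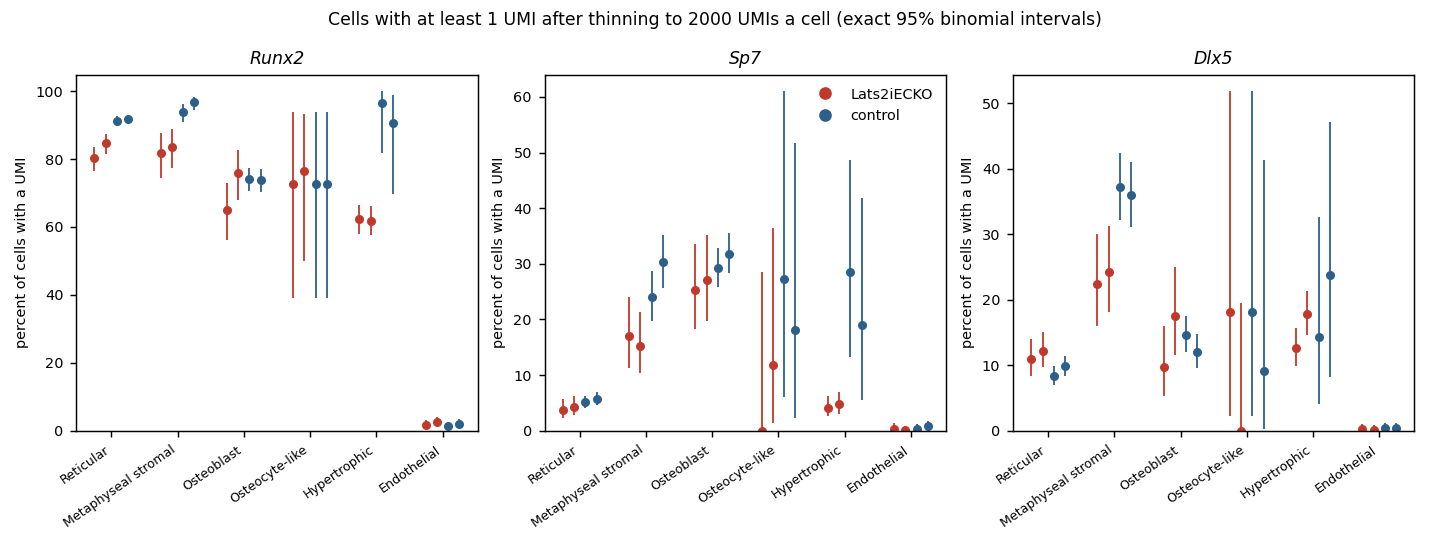
Percent of cells with at least 1 UMI of *Runx2*, *Sp7* and *Dlx5* after thinning each cell to 2000 UMIs, by class and library (Lats2iECKO red, control blue), with exact 95% binomial intervals for counting error, and ECs as the background. Intervals are wide for osteocyte-like cells and control hypertrophic cells, and the shares in ECs stay below 3%.

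Summed over all kept cells, 5 of the 7 members differed, in a comparison in which 55.0% of 22656 genes were called and in which fewer cells of a class and less RNA per cell cannot be told apart. *Dlx3* was lower by most, with 3.70 and 4.10 CPM in mutants against 12.9 and 12.7 CPM in controls (log2 fold change −1.65, adjusted p = 6.66e-08), although no single class of the 5 had a called change. *Sp7* stood at 34.9 and 34.7 CPM against 77.4 and 81.9 CPM (−1.13, adjusted p = 2.81e-08) and *Runx2* at 404 and 440 CPM against 906 and 864 CPM (−1.01, adjusted p = 1.02e-07). *Dlx6* fell (−0.81, adjusted p = 2.47e-05), *Msx1* rose (0.76, adjusted p = 2.47e-06), and *Dlx5* (−0.05, adjusted p = 0.434) and *Msx2* (−0.18, adjusted p = 0.475) were not called.

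The cells that carried the transcripts shifted as well. In controls, osteoblasts held 83.6% ± 1.505 of all *Dlx3* UMIs (SD, n = 2) and in mutants 45.7% ± 6.15, beside osteoblast shares of kept cells of 10.4% and 10.8% against 2.79% and 2.52%. For *Sp7*, osteoblasts held 46.1% ± 0.636 of the UMIs in controls and 21.1% ± 3.54 in mutants, while chondrocytes other than hypertrophic cells held 28.5% ± 0.114 and 50.4% ± 3.76. *Runx2* UMIs of controls lay in reticular cells (35.2% ± 1.14), metaphyseal stromal cells (19.96% ± 0.690) and osteoblasts (18.5% ± 1.07), and hypertrophic cells held 1.67% ± 0.796. In mutants the hypertrophic share of *Runx2* was 17.5% ± 0.684, and that of reticular cells 21.5% ± 0.869.

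**Figure D4:**
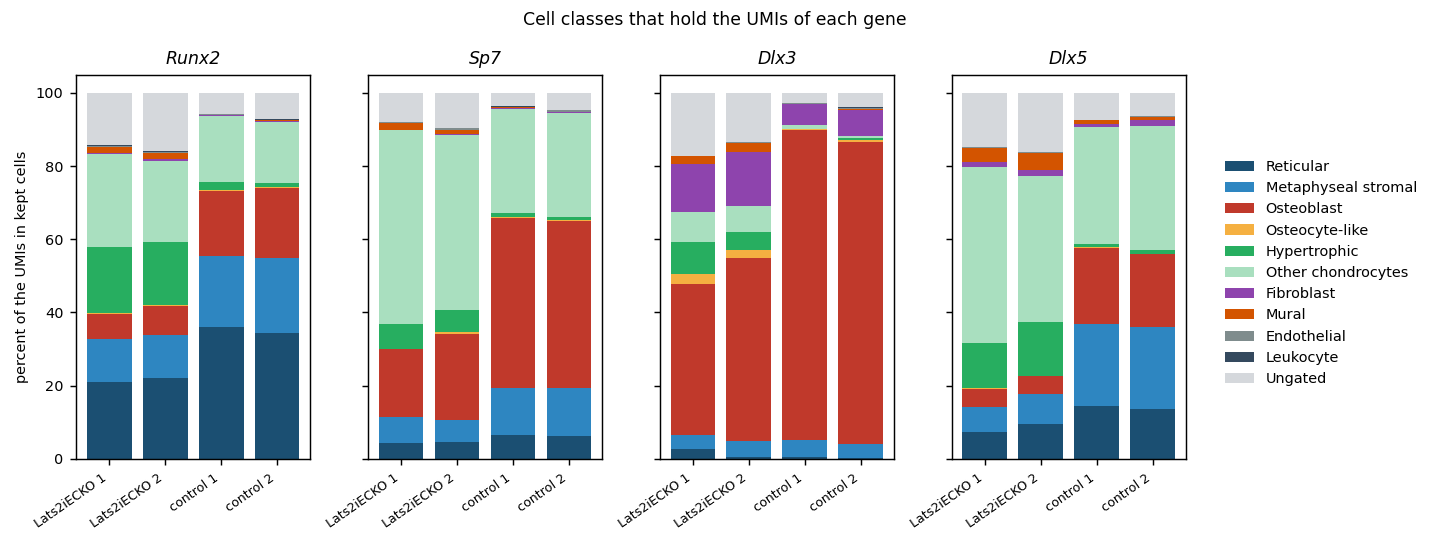
Share of the UMIs of *Runx2*, *Sp7*, *Dlx3* and *Dlx5* held by each class in each library, as percent of the UMIs in kept cells, each bar a library. Osteoblasts (red) hold most *Dlx3* UMIs in controls and fewer in mutants, and chondrocytes (greens) hold a larger share of each of the 4 genes in mutants.

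The next list held 15 partners and regulators of RUNX2 and SP7. Of the list, 4 genes were higher and 4 lower of 15 tested in reticular cells and 2 and 2 of 14 in metaphyseal stromal cells. In osteoblasts there were 2 and 1 of 14, in osteocyte-like cells 0 and 0 of 4 and in hypertrophic cells 1 and 3 of 12. Over all tested genes, 11.7% were called higher and 10.4% lower in reticular cells. The shares were 10.5% and 7.06% in metaphyseal stromal cells and 11.8% and 11.1% in hypertrophic cells. In either direction, 5.78% were called in osteoblasts and 4.15% in osteocyte-like cells. *Hey1*, a Notch target that restrains RUNX2, went both ways, higher in reticular cells (0.77, adjusted p = 0.00151) and lower in metaphyseal stromal cells (−0.74, adjusted p = 0.00364), a difference between classes that was not tested. *Zfp521*, a zinc finger antagonist of RUNX2, was lower in reticular (−0.60, adjusted p = 1.33e-05) and hypertrophic cells (−2.96, adjusted p = 6.88e-07), *Atf4*, an activator of osteoblast genes, was higher in metaphyseal stromal (0.62, adjusted p = 0.00154) and hypertrophic cells (2.05, adjusted p = 6.85e-06), and *Foxo1* was higher in osteoblasts (0.77, adjusted p = 0.00238). *Mef2c*, a driver of hypertrophy, was higher in reticular cells (0.70, adjusted p = 4.18e-06) and lower in hypertrophic cells (−0.54, adjusted p = 0.0374), and *Twist2*, a repressor of RUNX2, was higher in reticular cells (0.58, adjusted p = 0.0151). The median of the tested list genes was −0.05, −0.21, −0.09, −0.04 and −0.47 in the 5 classes in the order above, beside −0.01, −0.01, −0.0012, 0.02 and 0.04 over all tested genes.

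The 18 osteoblast and mineralization genes known as targets of these factors moved mostly in 1 direction in hypertrophic cells and in both directions elsewhere. In hypertrophic cells 14 of the 17 tested were lower and 1 higher, where 11.1% of 11163 tested genes were called lower and 11.8% higher. The median was −1.96 beside 0.04 over all tested genes. *Col10a1*, *Ihh* and *Panx3* of this list are hypertrophic gate markers, which helped to define this class. *Phex* (−4.38, adjusted p = 7.22e-08) and *Dmp1* (−2.82, adjusted p = 0.00501), genes of osteocytes and phosphate handling that are also osteocyte-like gate markers, and *Spp1*, which encodes osteopontin (9179 and 8111 CPM against 55305 and 62824 CPM), fell most, and *Vegfa* was the gene that rose (1.16, adjusted p = 3.46e-05). In reticular cells 5 of 18 were higher and 4 lower (median 0.05), beside 11.7% and 10.4% of all tested genes. Metaphyseal stromal cells had 8 and 4 of 17 (median 0.35), beside 10.5% and 7.06%. Osteoblasts had 8 and 5 of 17 (median 0.32), where 5.78% of genes were called in either direction. Osteocyte-like cells had 1 and 2 of 13 (median −0.17), where 4.15% of genes were called. The osteocalcin gene *Bglap*, a direct target of RUNX2, was lower in reticular cells (−1.12, adjusted p = 5.88e-06), metaphyseal stromal cells (−2.05, adjusted p = 1.69e-09), osteoblasts (−0.35, adjusted p = 5.25e-05) and osteocyte-like cells (−4.25, adjusted p = 0.0176), as was its near-identical copy *Bglap2*, with which it may share reads (−0.83, −1.84, −0.30 and −5.53). *Bglap*, *Bglap2* and *Ifitm5* of the list are also osteoblast gate markers. The control libraries held 668 and 684 osteoblasts, against 137 and 141 in the mutants. Free RNA was estimated at 3.555% and 3.824% in control reticular cells, against 1.833% and 1.855% in mutant ones. The part of osteoblast free RNA in the falls of *Bglap* and *Bglap2* in the other classes was not tested.

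Other targets went the other way. *Col10a1*, the collagen of hypertrophic cartilage, was higher in reticular cells (1.01), metaphyseal stromal cells (1.75) and osteoblasts (1.51, adjusted p of at most 1.03e-05 in the 3 classes). It stood at 52.8 and 43.4 CPM in mutant osteoblasts against 16.3 and 16.4 CPM in control osteoblasts. The mutant libraries held 543 and 548 hypertrophic cells, with *Col10a1* at 21966 and 22939 CPM, and the part of their free RNA in these differences was not tested. *Tnfsf11*, which encodes the osteoclast factor RANKL, was higher in reticular cells (1.24, adjusted p = 1.96e-08), metaphyseal stromal cells (1.42, adjusted p = 1.18e-06) and osteoblasts (2.92, adjusted p = 7.84e-04, at 6.48 and 11.5 CPM against 0.764 and 1.54 CPM). *Ibsp*, bone sialoprotein, was lower in reticular cells (−0.44, adjusted p = 5.58e-06) and higher in metaphyseal stromal cells (1.01, adjusted p = 0.00517) and osteoblasts, at 4884 and 5443 CPM against 2856 and 2946 CPM (0.79, adjusted p = 2.47e-06). *Spp1* was higher in reticular cells (0.85, adjusted p = 7.57e-09), metaphyseal stromal cells (0.37, adjusted p = 0.0107) and osteoblasts (0.86, adjusted p = 1.81e-05). In hypertrophic cells *Col10a1* (−0.39, adjusted p = 0.00791), *Tnfsf11* (−1.96, adjusted p = 2.08e-06), *Ibsp* (−2.13, adjusted p = 4.27e-06) and *Bglap* (−2.28, adjusted p = 5.49e-05) were lower. These hypertrophic values, the 3 of *Spp1* and that of *Ibsp* in osteoblasts were chosen after they were seen. The collagenase gene *Mmp13* rose in osteoblasts (1.19, adjusted p = 9.65e-04). Within osteoblasts, where no member was called, *Phex* was lower (−0.32, adjusted p = 0.0283). *Vegfa* was higher in reticular cells (0.90, adjusted p = 9.54e-08), *Ifitm5* lower in metaphyseal stromal cells (−0.72, adjusted p = 0.0192) and *Alpl* higher in osteocyte-like cells (2.73, adjusted p = 0.0329).

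**Figure D5:**
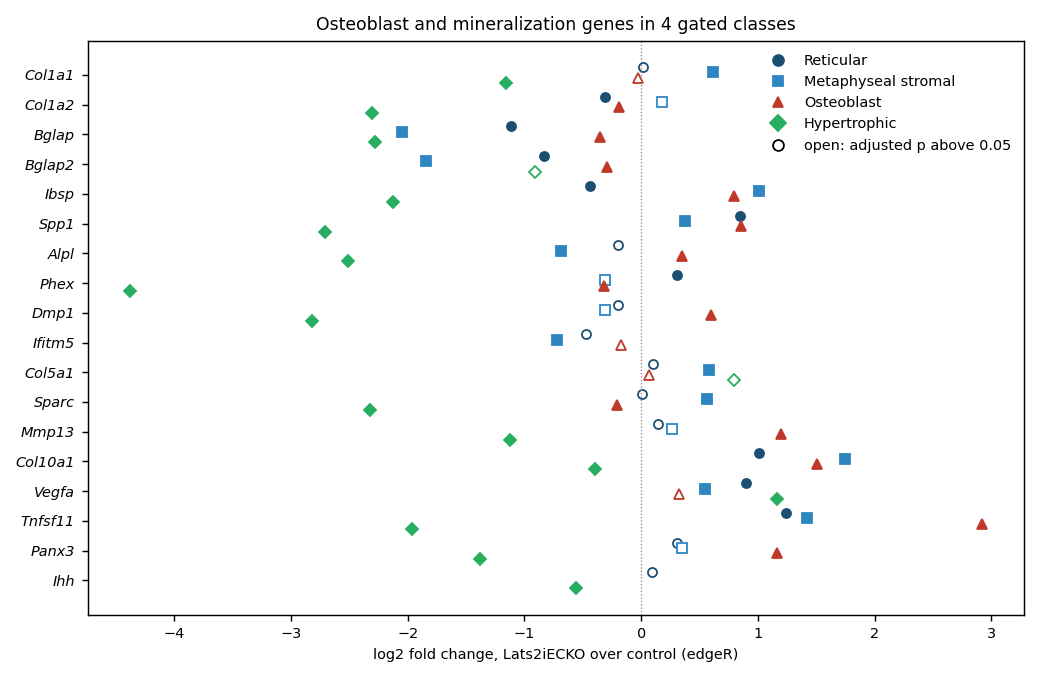
Log2 fold change, Lats2iECKO over control, of the 18 osteoblast and mineralization genes in 4 classes (circles reticular, squares metaphyseal stromal, triangles osteoblast, diamonds hypertrophic), filled for adjusted p of at most 0.05 in edgeR. Hypertrophic cells have 14 genes filled to the left of 0, and *Col10a1* and *Tnfsf11* lie to the right in the other 3 classes. *Col10a1*, *Ihh* and *Panx3* are hypertrophic gate markers, and *Bglap*, *Bglap2* and *Ifitm5* osteoblast gate markers.

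Of 14 other Dlx, Msx, Sp and Runx family genes, between 2 and 7 passed the count filter in a class. In reticular cells 1 was higher and 3 lower, in metaphyseal stromal cells 2 and 1, in osteoblasts 1 and 0, in osteocyte-like cells 0 and 0, and in hypertrophic cells 1 and 0. The list medians were −0.17, −0.22, 0.02, 0.66 and −0.16 in this order. The medians and called shares over all tested genes are those given with the list of partners and regulators. *Klf4*, a factor of the wider Sp family, was higher in reticular cells (1.90, adjusted p = 3.74e-09), metaphyseal stromal cells (1.33, adjusted p = 1.61e-06) and hypertrophic cells (1.08, adjusted p = 7.01e-04). The *Runx2* paralog *Runx1* was lower in reticular cells (−0.40, adjusted p = 2.12e-05) and higher in metaphyseal stromal cells (0.27, adjusted p = 0.0309) and osteoblasts (0.66, adjusted p = 2.07e-04), and the classes were not tested against each other for this gene. *Sp1* (−0.37, adjusted p = 0.00390) and *Runx3* (−0.30, adjusted p = 0.0353) were lower in reticular cells. *Dlx6os1*, the transcript antisense to *Dlx6*, was lower in metaphyseal stromal cells like *Dlx6* itself (−0.72, adjusted p = 0.0138), with the limit on strand given above.

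Outside the 5 classes, the direction of *Runx2* was not uniform. In the other chondrocytes *Runx2* (260 and 266 CPM against 587 and 511 CPM, −1.003, adjusted p = 1.32e-10) and *Sp7* (46.8 and 44.9 CPM against 79.2 and 81.8 CPM, −0.75, adjusted p = 6.85e-09) were lower, in a class in which 40.7% of 17154 genes were called. *Msx1* was higher there (0.49, adjusted p = 0.00111) and *Msx2* lower, at 1.48 and 1.29 CPM against 2.63 and 3.04 CPM (−0.98, adjusted p = 0.00475, and 0.0928 with DESeq2). *Dlx3* had 15 and 16 counts against 8 and 3 (adjusted p = 0.0311), and in 7 alternatives, with or without replicates left out, the adjusted p was 0.0965 to 0.365.

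In mural cells, where 31.3% of 11817 genes were called, *Runx2* was higher in mutants, at 101 and 112 CPM against 44.1 and 18.3 CPM (log2 fold change 1.82, adjusted p = 1.88e-06). The size depended on 1 control library and on the doublet calls, with 2.56 without control replicate 1, 1.33 without control replicate 2 and 0.71 with doublet calls kept (adjusted p at most 0.0367 in every alternative). *Dlx5* was also higher, at 33.1 and 36.4 CPM against 21.4 and 17.7 CPM (0.88, adjusted p = 0.00214, and 0.0694 with DESeq2). This *Dlx5* call was also lost without mutant replicate 2. The mural markers *Myh11*, at 1147 and 1199 CPM against 3502 and 3733 CPM, and *Acta2*, at 4752 and 4454 CPM against 10183 and 11058 CPM, were lower in the same sums and *Col10a1* was higher, at 338 and 416 CPM against 38.2 and 33.5 CPM. The part of these differences in that of *Runx2* was not tested. In ECs, where *Lats2* was targeted, *Msx1* was higher, at 32.3 and 34.4 CPM against 19.0 and 18.2 CPM (0.92, adjusted p = 2.45e-04, where 34.3% of 14259 genes were called). *Runx2* overlapped between genotypes, at 11.8 and 13.4 CPM in mutants against 8.22 and 19.4 CPM in controls. The members called in ECs depended on which control library was left out. In fibroblasts and leukocytes edgeR called 0 members, where 2.14% and 9.0% of genes were called. At an unadjusted p under 0.05 there was 1 in fibroblasts, *Dlx3*, beside 1801 of 11134 genes. In leukocytes there were 0, beside 1742 of 8415 genes. DESeq2 called 0 of the members for which it gave an adjusted p. The fibroblast result depended on 1 library, since without mutant replicate 2 *Runx2* (−0.90, adjusted p = 4.49e-04) and *Dlx3* (−0.96, adjusted p = 0.0454) were called lower, beside −0.44 and −0.76 with all libraries (adjusted p = 0.323 and 0.126), and genes called went from 238 to 656. In the clusters *Runx2* in fibroblasts was 0.88 (adjusted p = 0.423) and 1 gene was called. In leukocytes, where 1 member was tested in most settings, 0 members were called in any alternative while genes called ranged from 36 with doublet calls kept to 2400 without the added cell filters, beside 757.

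Over the 40 sums of 10 classes and 4 libraries, the genes most like each member were given by Pearson r of log2(CPM + 1), as a description across sums that share libraries. For *Runx2* they were *Pak3* (0.894), *Hpgd* (0.888) and *Ncam1* (0.867), and for *Sp7* *Slc8a3* (0.883), *Hpgd* (0.868) and *Pth1r* (0.861), the parathyroid hormone receptor. *Dlx3* was closest to *Dok5* (0.903), *Col22a1* (0.893) and *Col1a1* (0.890), the main collagen gene of bone. *Dlx5* was closest to *Gpc1* (0.943), *Shox2* (0.924) and *Srpx2* (0.907), and *Dlx6* to *Tnfrsf19* (0.863), *Smarca1* (0.858) and *Gm5834* (0.837). For *Msx1* they were *Ephx1* (0.873), *Lynx1* (0.867) and *Zfp503* (0.867), and for *Msx2* *Col4a5* (0.871), *4631405J19Rik* (0.8001) and *Sox5* (0.792). None of these is a gate marker.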

How the data were processed

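Cells of the metaphysis were captured with 10x Chromium v3 chemistry. The authors deposited unfiltered matrices of expected counts, UMIs that STARsolo 2.7.10a shared among genes by expectation maximization over exons and introns, after trimming with cutadapt 3.5 and alignment to GRCm39/mm39 with GENCODE M26 and transgene sequences. Free RNA and doublets were still in these files.

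Barcodes with at least 1000 UMIs and 800 genes were kept below 15% mitochondrial and 5% hemoglobin UMIs and above a complexity of 0.8. Doublet calls were removed at a rate of 0.8% per 1000 barcodes. They were the barcodes with the most simulated doublets among their nearest neighbours (scikit-learn 1.9.0, on variable genes chosen with Scanpy 1.11.5). A cell joined the class with the highest marker score (at least 0.15, a margin of 0.05 and 2 markers). Of 4486 reticular, 1090 metaphyseal stromal, 1630 osteoblast, 57 osteocyte-like and 1140 hypertrophic cells, 93, 109, 61, 8 and 123 lay near a gate limit. With cells just outside the gate included, 172, 206, 175, 10 and 225 cells lay near a limit. Expected counts were summed by library and class, rounded to whole numbers and tested with edgeR 4.0.16 (TMM, filterByExpr, quasi-likelihood, R 4.3.3), with DESeq2 1.42.0 among the alternatives. Differences between classes came from 1 fit with the library as a block. Binomial and counting intervals cover counting error only. On simulated data, 78%, 63%, 65% and 46% of 2-fold changes were recovered in reticular, metaphyseal stromal, osteoblast and hypertrophic cells. The simulation used a fixed dispersion and changed only genes with many counts, so it gives no power for members with few counts. Replicate numbers did not pair the libraries (correlations of deviations −0.0235 to 0.0772).

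Named list genes were up to 3 per direction, list and class with the largest called change and no overlap between genotypes. Values of 1 gene that this rule names are not reported here. Similar genes had at least 20 CPM in 1 sum. The members and lists were chosen with earlier results of these data known.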

Additional observations from a re-analysis of the deposited data

Results flagged for a closer look

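The genotype effect differed between classes for *Sp7* and *Runx2* in edgeR. Against the mean of the other 4 classes, the *Sp7* effect was higher in osteoblasts by 1.14 on the log2 scale and lower in hypertrophic cells (−1.46). The *Runx2* effect was higher in osteoblasts by 0.62 and lower in hypertrophic cells (−0.83). The osteoblast and hypertrophic differences are linked. The *Runx2* osteoblast difference missed the threshold with most of the libraries left out in turn. The *Runx2* hypertrophic difference missed it without control replicate 1, and the *Sp7* hypertrophic difference without mutant replicate 2.

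*Dlx5* and *Runx2* were called in opposite directions in different classes. The log2 fold change of *Dlx5* was 0.37 in reticular cells, −0.59 in metaphyseal stromal cells and 0.88 in mural cells. The reticular call was lost with DESeq2, in the clusters and without either control library, and the metaphyseal stromal call in the clusters. The mural call was lost with DESeq2 and without mutant replicate 2. The log2 fold change of *Runx2* was −0.55 in reticular cells, −0.74 in metaphyseal stromal cells, −1.53 in hypertrophic cells, −1.003 in the other chondrocytes and 1.82 in mural cells. The difference between mural cells or the other chondrocytes and the rest was not tested.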

How the results depend on the processing

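The falls of *Runx2* in reticular and hypertrophic cells (−0.61 to −0.50 and −1.72 to −1.18), of *Sp7* in hypertrophic cells (−2.61 to −2.12) and the rise of *Msx1* in reticular cells (0.60 to 0.89) were called in every alternative in which they could be tested. The clusters, which held no control hypertrophic cells, were not among the alternatives for that class. With DESeq2, genes called went from 3320 to 1443 in reticular cells (members from 4 to 2), from 2113 to 988 in metaphyseal stromal cells and from 731 to 282 in osteoblasts. Requiring a UMI in 20% of cells left 2058 genes and 2 members in reticular cells, and 4218 of 12464 genes and 2 of 5 members over all kept cells, since fewer genes were tested. The clusters gave 1489 genes in reticular cells, and 167 genes and 1 member in metaphyseal stromal cells, where the stricter gate gave 1262 genes. Without a count filter 78 genes in place of 46 were called in osteocyte-like cells. The cause was not tested for DESeq2, the clusters or the gate.

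With each library left out in turn, the remaining library of its genotype being taken to vary like the others, genes called ranged from 1270 to 3040 in reticular cells, 1214 to 2077 in metaphyseal stromal cells, 73 to 1320 in osteoblasts, 0 to 127 in osteocyte-like cells and 1276 to 2828 in hypertrophic cells. Members called ranged from 2 to 4 in reticular cells (2 without control replicate 2), 0 to 4 in osteoblasts (4 without mutant replicate 2) and 2 to 3 in hypertrophic cells. Members whose effect differed between classes ranged from 0 to 1 for metaphyseal stromal cells (1 without mutant replicate 2), 1 to 2 for osteoblasts and 1 to 2 for hypertrophic cells. For osteoblasts it was 1 in place of 2 without the added cell filters and with doublet calls kept. In the 4-class fits, chosen after seeing the data as was library totals without TMM, it was 2 in place of 0 for reticular cells (2 with stricter cell filters, 1 with the stricter gate) and 1 in place of 0 for metaphyseal stromal cells in all 3 fits.

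Changes of sign were limited to differences that were not called with the main settings. *Dlx5* changed sign without a count filter in hypertrophic cells (0.060) and osteoblasts (−0.033), with 1 library left out in hypertrophic cells (−0.27 to 0.057, above 0 without control replicate 2) and osteoblasts (−0.064 to 0.10, below 0 without mutant replicate 1 or control replicate 2), and over all kept cells (−0.10 to 7.41e-05, above 0 without mutant replicate 2). *Msx1* in osteoblasts ranged from −0.19 to 0.47 (below 0 without mutant replicate 1 or control replicate 1), *Sp7* in osteoblasts from −0.32 to 0.0088 (above 0 without mutant replicate 1), and *Dlx6* in reticular clusters −0.21. Among control levels, *Dlx5* in osteoblasts over hypertrophic cells was 0.074 with 4 classes. With library totals *Dlx3* and *Runx2* in osteoblasts over osteocyte-like cells were −0.18 and −0.78, *Dlx6* in osteocyte-like over hypertrophic cells 0.35, and *Msx1* in reticular over metaphyseal stromal cells 0.0060. With the replicate block, 4, 5, 0, 0 and 3 members were called in the 5 classes in the order of the report, and 5 over all kept cells, the same counts as without it. The stricter cell filter and gate left under 10 osteocyte-like cells in a library, and the clusters gave neither osteocyte-like cells nor control hypertrophic cells, so these were not run.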
